A study of Mus musculus with 4 samples.

Results

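The brush border peptidases described here are 9 genes of membrane or membrane-associated enzymes, Anpep, Enpep, Dpp4, Ace, Mme, Naaladl1, Xpnpep2, Mep1a and Mep1b, taken by symbol from a table of 22458 gene symbols measured by RNA-seq in mouse jejunal epithelium. All 9 were found, each in 1 row. There were 4 libraries in 2 groups. The tested animals, labelled Hnf4a;Cdx2 double-knockout, gave 2 libraries, and the Cre- control animals gave 2, which the labels call biological replicates. All mice were adults of a 129xC57/Bl6xSvJ mixed background and all were injected with tamoxifen (1 mg a day, 5 days), so the controls carried the drug but no Cre recombinase. The sources used here do not name the promoter that drives Cre, nor which exons it removes. The comparison asks how the jejunal epithelium differs when HNF4A and CDX2, a nuclear receptor and a homeobox transcription factor of the intestinal lining, are targeted together.

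Absorptive enterocytes, the main cells of the villus, carry a dense layer of microvilli at their luminal surface. Peptidases anchored there cut the peptides that gastric and pancreatic proteases leave behind into amino acids and very short peptides, which carriers in the same membrane take up and peptidases of the cytosol finish. Aminopeptidases and dipeptidyl peptidases work from the N-terminus, angiotensin converting enzyme removes dipeptides from the C-terminus, and neprilysin and the meprins cut inside the chain. Several of these enzymes also cut peptide hormones.

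The values are FPKM, reads scaled to transcript length and library size, so levels can be compared between genes. The files used here hold no read totals. In the lowest values of the per-library files the most frequent step between libraries put the depth of replicates 1 and 2 of the double knockout at 0.665 and 0.456 times that of control replicate 1, and control replicate 2 at 0.775 times. Hnf4a was at 31.6 and 48.2 FPKM in the libraries labelled double knockout, against 156 and 202 FPKM in controls (limma, adjusted p = 0.0147). Cdx2 was at 160 ± 0.888 FPKM in the libraries labelled double knockout and at 68.1 ± 4.04 FPKM in controls (SD, n = 2 each; limma, adjusted p = 0.0150), which goes against its label. Exons outside a deleted part still count in a gene's FPKM, so this value does not tell whether Cdx2 was deleted, and every direction below rests on the labels. In the fits that leave out 1 library Hnf4a kept its call in 2 of 4 and Cdx2 in 1 (limma, adjusted p of up to 0.0875 and 0.0868). Hnf4g, the paralog of Hnf4a, was at 80.7 and 57.8 FPKM in the libraries labelled double knockout, against 169.6 and 238 FPKM in controls (limma, adjusted p = 0.0315; kept in 1 of those 4 fits, with up to 0.126). Cdx1 and Gata4 had limma adjusted p-values of 0.933 and 0.978. Of 11 enterocyte markers 1 was called, Vil1, which encodes the microvillus protein villin and fell to 497 ± 15.3 FPKM in the double knockout, against 997 ± 38.4 FPKM in controls (SD, n = 2 each; limma, adjusted p = 0.0411, and 0.105 to 0.164 in the fits without 1 library). The summed level of those 11 markers was 52841 and 35303 FPKM in the double knockout and 45330 and 47947 FPKM in controls. In bulk tissue, fewer cells of a type and less RNA per cell cannot be told apart.

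Of the 9 peptidase genes 4 fell in the libraries labelled double knockout (Xpnpep2, Naaladl1, Enpep and Mep1a), 0 rose and 5 did not pass the test (limma on log2(FPKM + 1), Benjamini-Hochberg adjusted p under 0.05). Over all 10883 genes tested, 5.8% were called lower and 3.77% higher, 9.57% in all. The authors' deposited table calls 5 of the 9 lower, the same 4 and Dpp4, and 0 higher. Over its 10785 rows for genes that were also tested here, it calls 7.54% lower and 5.98% higher. With FPKM estimated for each library alone 478 genes were lower and 515 higher, against 631 lower and 410 higher here, and the median of all genes then stood at 0.17 on the log2 scale against 0.02; the peptidase counts were again 4 and 0. The median log2 fold change of the peptidases was -1.48. In 8 of the 9 both double knockout libraries lay under both controls, a separation that 29.5% of all genes tested showed; in the other, Anpep, both lay above. Groups did not overlap for 60.7% of all genes in either direction. With FPKM estimated for each library alone, the groups overlapped for Mme. It was then at 153 and 80.4 FPKM in the double knockout, against 143 and 277 FPKM in controls. All 9 genes passed the filter (mean of 1 FPKM or more), and none fell under 1 FPKM in any library, so the filter did not choose among them. With 2 libraries a group, p in an exact permutation test is 0.333 at the least, so single values were tested through the fit across genes only. When either control was left out the number called lower was 2 (Enpep and Naaladl1).

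**Figure D1:**
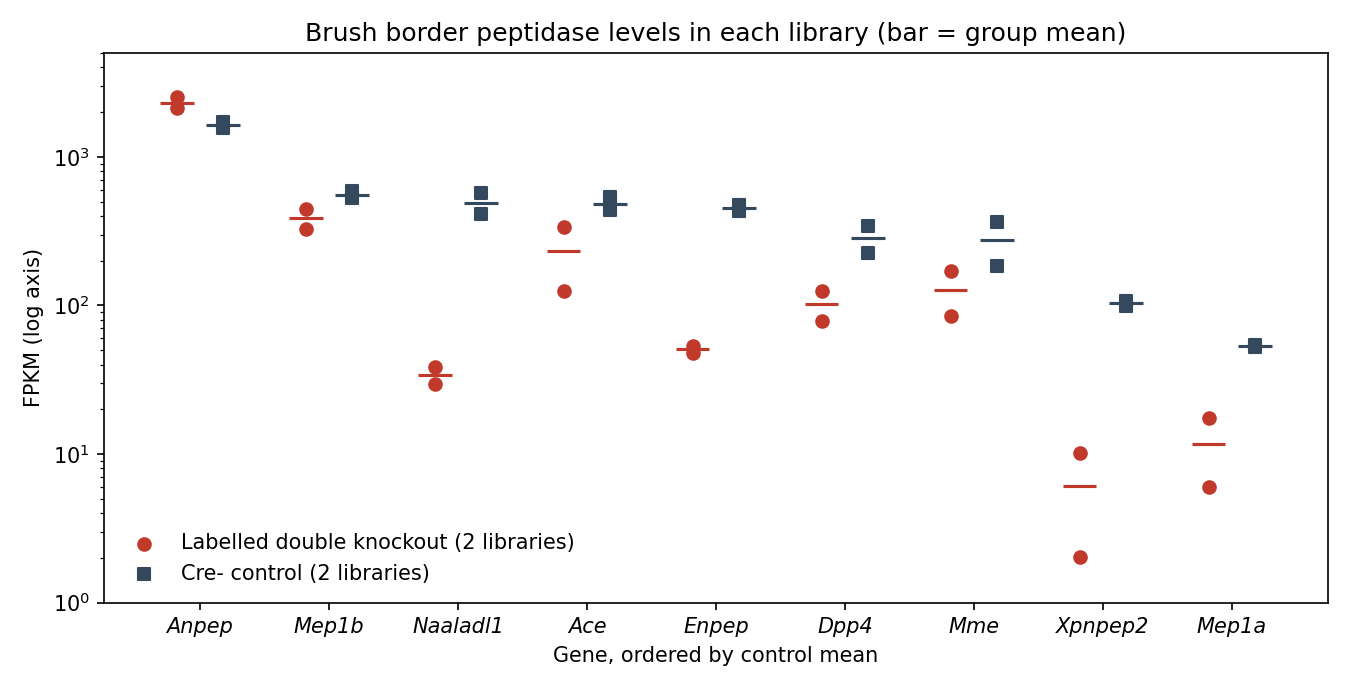
FPKM of each brush border peptidase gene in each library, on a log axis, with the 2 libraries labelled double knockout (circles) left of the 2 controls (squares) and a bar at each group mean. In these normalized values the groups do not overlap for any gene. Anpep is the only gene with both double knockout libraries above both controls, and the gap is widest for Naaladl1 and Xpnpep2.

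Of Anpep and Enpep, which belong to the same family of zinc aminopeptidases, only Enpep was called. Anpep encodes aminopeptidase N, the abundant enzyme that removes neutral residues from the N-terminus (chromosome 7, 86966688 to 86987238, in the mm9 build used for all gene positions here). It stood at 2514 and 2127 FPKM in the double knockout, against 1721 and 1557 FPKM in controls. Both double knockout libraries were above both controls, and the log2 fold change of 0.50 ± 0.24 did not pass the test (SE; 95% interval -0.12 to 1.11; limma, adjusted p = 0.248). Enpep encodes aminopeptidase A, which removes acidic residues and degrades angiotensin peptides (chromosome 3, 128972094 to 129035667). It fell to 53.4 and 48.1 FPKM in the double knockout, against 476 and 431 FPKM in controls. The libraries of a group lay close together, and the mean was 8.94-fold lower, or -3.13 ± 0.17 in log2 terms (SE; limma, adjusted p = 0.00220). Enpep was called in 13 of 13 alternative settings, Anpep in 0. The FPKM of Anpep was 47.1 and 44.2 times that of Enpep in the double knockout libraries, against 3.62 and 3.61 times in the controls.

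Naaladl1, a zinc peptidase of the same family as the folate-releasing enzyme Folh1, fell as well (chromosome 19, 6105797 to 6115555). It was at 38.4 and 29.6 FPKM in the double knockout, against 569 and 414 FPKM in controls. The lower control was still over 10 times the higher double knockout library. Its log2 change was -3.81 ± 0.24 (SE; limma, adjusted p = 0.00331), 14.4-fold lower in the means, and it was called in 13 of 13 alternatives.

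Xpnpep2 and Dpp4 encode the proline-directed enzymes of the list. Xpnpep2 is membrane-bound aminopeptidase P, which releases a residue that stands before proline and also cuts bradykinin (chromosome X, 45461901 to 45490158). It fell to 10.1 and 2.03 FPKM in the double knockout, against 99.7 and 107 FPKM in controls. The controls were close together, while replicate 1 of the double knockout held 4.99 times as much as replicate 2. The log2 fold change, -4.17 ± 0.61 (SE; limma, adjusted p = 0.0213), was the lowest of the 9 genes, though its 95% interval (-5.74 to -2.59) overlaps those of Naaladl1 (-4.42 to -3.19) and Enpep (-3.57 to -2.70). It was -3.23 with only double knockout replicate 1 in its group and -5.10 with only replicate 2. The call did not hold when control replicate 1 or control replicate 2 was dropped (limma, adjusted p = 0.0995 and 0.119). Dpp4 encodes dipeptidyl peptidase 4, a serine protease that removes dipeptides ending in proline or alanine and inactivates incretin hormones (chromosome 2, 62168129 to 62250288). It stood at 125 and 78.8 FPKM in the double knockout, against 226 and 344 FPKM in controls. The groups did not overlap, but the spread within each was wide. The log2 fold change of -1.48 ± 0.32 missed the threshold (SE; limma, adjusted p = 0.0571) and was called in 0 of 13 alternatives, at limma adjusted p-values of 0.0527 to 0.194. The authors' deposited table calls Dpp4, at 104 FPKM in the knockout and 283 FPKM in control (q = 0.0198).

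Ace and Mme, both zinc peptidases that also cut circulating peptides, varied widely between replicates. Ace encodes angiotensin converting enzyme (chromosome 11, 105826920 to 105851278). It stood at 337 and 126 FPKM in the double knockout, against 533 and 436 FPKM in controls. The double knockout libraries lay further apart, 2.68-fold, than the group means, 2.09-fold. The log2 fold change of -1.22 ± 0.49 did not pass the test (SE; limma, adjusted p = 0.186). It passed when double knockout replicate 1 was dropped, at -1.93 (limma, adjusted p = 0.0327; 0.0327 to 0.386 over the alternatives), and it was -0.51 when double knockout replicate 2 was dropped. The positions in the files place Gm11651 over part of the same span, and that gene did not exceed 0.142 FPKM. Mme encodes neprilysin, an endopeptidase that degrades many small peptides (chromosome 3, 63099356 to 63187635). It stood at 170.2 and 84.3 FPKM in the double knockout, against 183 and 367 FPKM in controls. The higher double knockout library nearly reached the lower control, and the log2 fold change of -1.11 ± 0.48 did not pass the test (SE; 95% interval -2.33 to 0.12; limma, adjusted p = 0.210).

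The meprins are encoded by Mep1a and Mep1b; the beta subunit anchors in the membrane, and alpha is secreted unless it pairs with beta. Mep1a (chromosome 17, 43611277 to 43639722) fell to 17.4 and 5.97 FPKM in the double knockout, against 52.3 and 53.8 FPKM in controls. Its controls agreed closely and its double knockout libraries differed 2.91-fold. The log2 fold change of -2.25 ± 0.47 lay at the threshold (SE; limma, adjusted p = 0.0499). It was called in 5 of 13 alternatives, at adjusted p-values of 0.0104 to 0.187, and it was lost when control replicate 1 or 2 was dropped (limma, adjusted p = 0.149 and 0.187). The value was -1.56 with only double knockout replicate 1 in its group and -2.95 with only replicate 2. Mep1b (chromosome 18, 21230844 to 21258700) stood at 448 and 327 FPKM in the double knockout, against 526 and 585 FPKM in controls. The groups did not overlap, and the log2 fold change of -0.53 ± 0.23 did not pass the test (SE; 95% interval -1.13 to 0.07; limma, adjusted p = 0.215). The ratio of Mep1b to Mep1a FPKM was 25.8 and 54.8 in the double knockout, against 10.1 and 10.9 in controls.

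**Figure D2:**
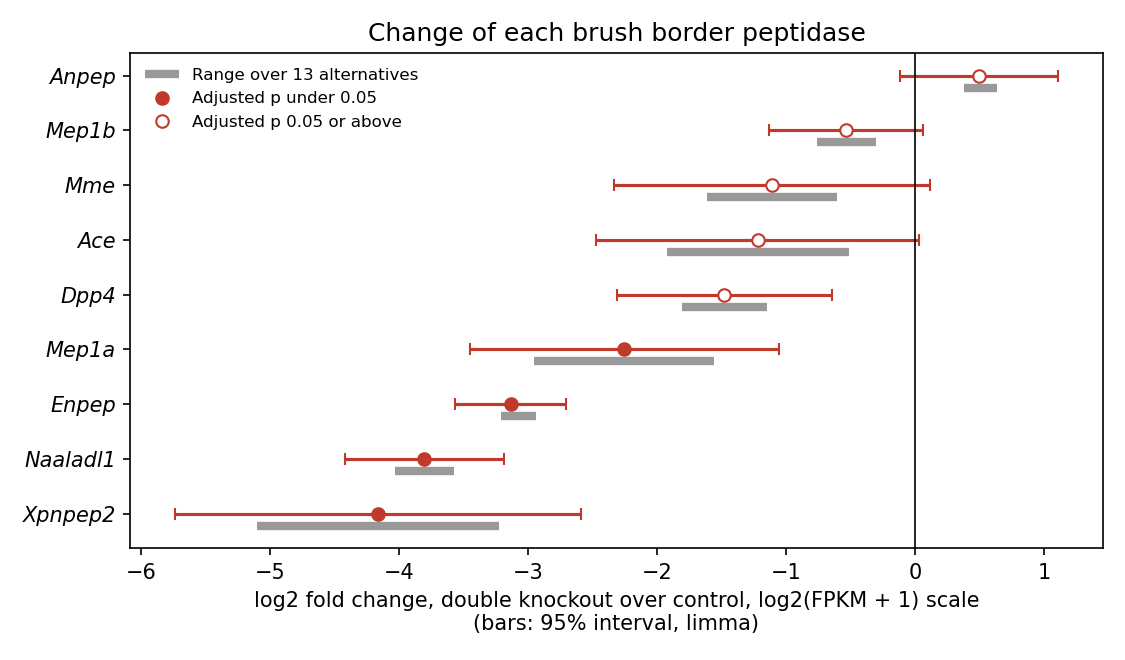
Log2 fold change of each gene, double knockout over control, on the log2(FPKM + 1) scale, with 95% intervals from limma. Filled points passed an adjusted p of 0.05, and grey bars span the 13 alternatives. The intervals of Xpnpep2, Naaladl1, Enpep, Mep1a and Dpp4 lie under 0, and no alternative changed the sign of any of the 9 genes.

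The promoter windows below are shown for the 3 called genes with a window, and for Anpep, which had the highest fold change, and Dpp4, whose window holds a CDX match. Each is the 250 bases before the start in RefSeq's GRCm38.p6 table, 5′ to 3′ on the strand of the gene; 7 of the 9 genes matched that table. The start used in these libraries was not measured. Capitals mark a match, on either strand, to 1 of 4 motifs. These are an element that HNF4 prefers (spelt AAGTCCA), the core of the direct repeat that HNF4 binds (spelt CAAAGNNCA), the CDX site (spelt TTTATNG) and the GATA site (spelt GATAAG). The windows are written in lower case elsewhere.
Enpep promoter, chr3:129332750-129332999, minus strand: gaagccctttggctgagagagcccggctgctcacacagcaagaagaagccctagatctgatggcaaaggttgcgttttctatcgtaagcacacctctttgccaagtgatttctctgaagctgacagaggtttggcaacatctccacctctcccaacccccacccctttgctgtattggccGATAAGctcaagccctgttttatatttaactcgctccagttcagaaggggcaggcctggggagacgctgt
Xpnpep2 promoter, chrX:48108475-48108724, plus strand: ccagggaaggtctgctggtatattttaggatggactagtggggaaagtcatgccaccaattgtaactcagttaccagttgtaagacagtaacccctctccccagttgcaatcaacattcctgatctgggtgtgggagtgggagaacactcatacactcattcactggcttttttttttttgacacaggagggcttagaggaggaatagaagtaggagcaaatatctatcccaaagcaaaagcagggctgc
Mep1a promoter, chr17:43502774-43503023, minus strand: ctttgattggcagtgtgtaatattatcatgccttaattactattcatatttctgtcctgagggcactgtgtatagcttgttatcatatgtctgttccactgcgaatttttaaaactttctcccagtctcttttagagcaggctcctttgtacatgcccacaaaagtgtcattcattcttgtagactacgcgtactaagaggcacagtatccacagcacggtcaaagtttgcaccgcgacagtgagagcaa
Anpep promoter, chr7:79848211-79848460, minus strand: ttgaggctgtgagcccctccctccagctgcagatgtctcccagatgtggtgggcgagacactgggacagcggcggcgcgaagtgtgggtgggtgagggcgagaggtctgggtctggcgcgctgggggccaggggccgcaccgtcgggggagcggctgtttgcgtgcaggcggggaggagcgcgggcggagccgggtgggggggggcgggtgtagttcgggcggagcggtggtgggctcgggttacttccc
Dpp4 promoter, chr2:62412232-62412481, minus strand: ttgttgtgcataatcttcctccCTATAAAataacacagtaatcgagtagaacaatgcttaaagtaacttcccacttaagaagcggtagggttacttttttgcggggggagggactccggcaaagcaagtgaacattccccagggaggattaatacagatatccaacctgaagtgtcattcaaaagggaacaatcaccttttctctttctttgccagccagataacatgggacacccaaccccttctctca
The 3 matches found lie in windows of different genes, so none overlaps another. The GATA match in Enpep starts 70 bases before the start, and the CDX match in Dpp4, read on the other strand, 228 bases before it. The CAAAGNNCA match lies in the second Ace window, which is not shown (chr11:105974939-105975188), also on the other strand, 197 bases before its start. That start is downstream of the first Ace window (chr11:105967698-105967947), which held 0 matches. Over all 32851 windows of the table, AAGTCCA was present in 3.36%, CAAAGNNCA in 5.49%, TTTATNG in 9.81% and GATAAG in 6.55%. Of the 10 windows of the peptidases, 0 held AAGTCCA and 1 each held CAAAGNNCA (the second Ace window), TTTATNG and GATAAG. The window of Anpep was 72.8% G or C, those of Enpep, Xpnpep2, Dpp4 and Mep1a 52.4%, 46%, 43.6% and 41.6%. Those of Ace were at 67.2% and 58%, and those of Mme at 45.6%, 73.2% and 73.6%, so a high share was not particular to Anpep.

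Because FPKM is scaled to length, the 9 levels can be added. Their sum was 3714 and 2829 FPKM in the double knockout libraries, against 4386 and 4294 FPKM in the controls. Without Anpep it was 1200.4 and 702 FPKM in the double knockout, against 2664 and 2737 FPKM in controls. Anpep made up 67.7% and 75.2% of the sum in the double knockout, against 39.3% and 36.3% in controls. The drop in the sum without Anpep was larger, since Anpep was the 1 gene with a higher mean in the double knockout. The 4 called genes together gave 119 and 85.8 FPKM in the double knockout, against 1197 and 1006 FPKM in controls. They were picked for lower values in these same libraries, so a lower sum follows from that choice. These sums carry no test, since the genes were chosen with earlier results known.

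**Figure D3:**
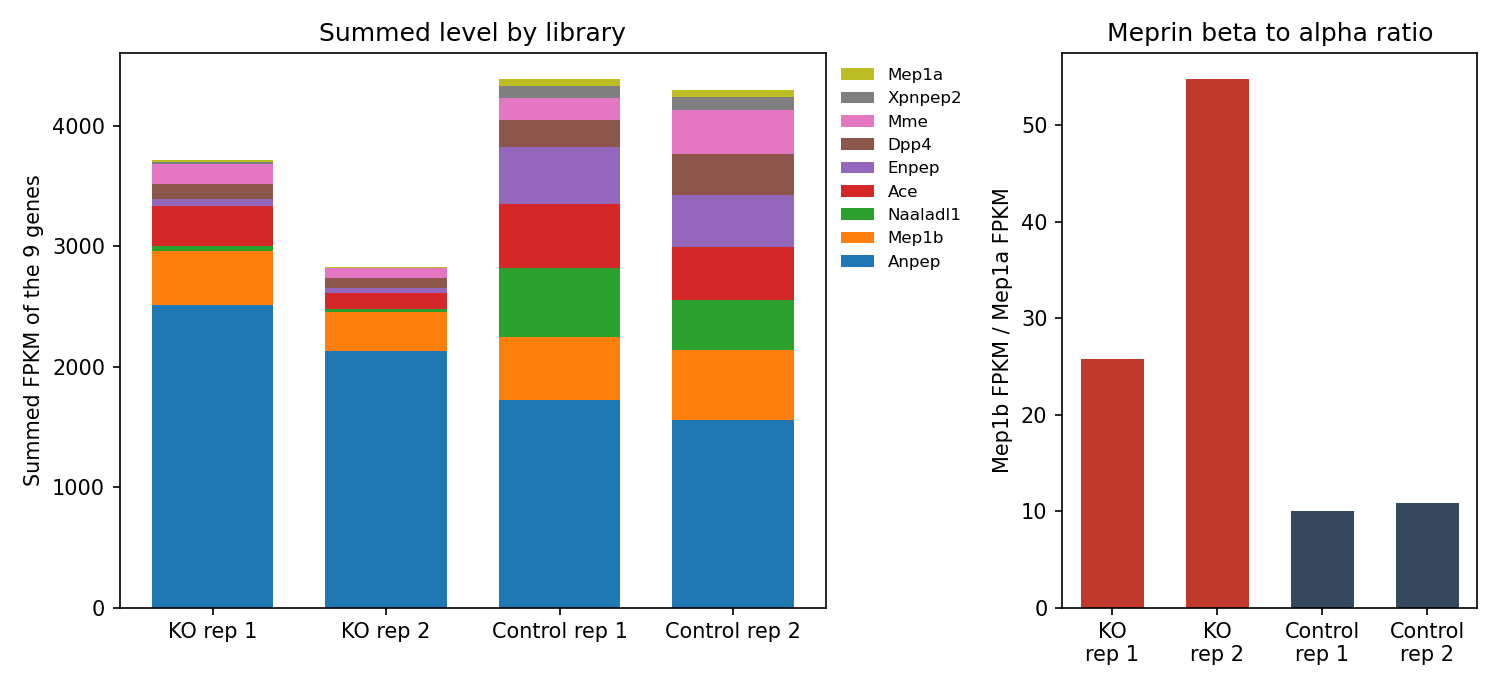
Left, summed FPKM of the 9 genes in each library, stacked by gene, the 2 libraries labelled double knockout (KO) left of the 2 controls; right, the ratio of Mep1b to Mep1a FPKM in the same libraries. Anpep fills 67.7% and 75.2% of the double knockout bars and 39.3% and 36.3% of the control bars, and the ratio is 25.8 and 54.8 in the double knockout against 10.1 and 10.9 in controls.

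The order of the levels differed between the groups. In the double knockout, Anpep (2320.2 ± 274 FPKM) was followed by Mep1b (388 ± 85.8), Ace (232 ± 149), Mme (127 ± 60.7), Dpp4 (102 ± 32.9), Enpep (50.8 ± 3.70), Naaladl1 (34.0 ± 6.20), Mep1a (11.7 ± 8.07) and Xpnpep2 (6.09 ± 5.74; SD, n = 2 each). Neighbours from Mep1b to Dpp4, and Mep1a with Xpnpep2, overlapped between libraries. In controls the order was Anpep (1639 ± 116 FPKM), Mep1b (555 ± 41.5), Naaladl1 (491 ± 109.7), Ace (484 ± 68.5), Enpep (454 ± 31.6), Dpp4 (285 ± 83.9), Mme (275 ± 129.6), Xpnpep2 (103 ± 5.16) and Mep1a (53.1 ± 1.09; SD, n = 2 each). There the libraries of Mep1b, Naaladl1, Ace and Enpep overlapped from neighbour to neighbour, as did those of Dpp4 and Mme. Naaladl1 thus ranked 3 in controls and 7 in the double knockout, and Enpep 5 and 6.

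The 2 double knockout libraries differed from each other in 1 direction: all 9 genes were lower in replicate 2 than in replicate 1, by 1.11-fold (Enpep) to 4.99-fold (Xpnpep2). Of all genes tested 53.2% were lower in that replicate. Between the controls 4 of the 9 were lower in replicate 2. Replicate 2 of the double knockout also had the shallower depth, the lower summed level of the enterocyte markers and the highest sum of 9 T cell markers (61.6 and 177 FPKM in the double knockout, replicates 1 and 2, against 75.4 and 92.5 FPKM in controls). The part of these in the peptidase values was not tested.

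Genes whose profile over the 4 libraries lay nearest were sought among the 5870 tested genes whose mean reached 10 FPKM, by Euclidean distance of centred log2(FPKM + 1). For Xpnpep2 these were Lrrc19 (distance 0.47), Gm9992 (0.68) and Pdzk1 (0.74), the last a scaffold protein of the apical membrane. Lrrc19 was at 3.58 and 0.460 FPKM in the double knockout, against 48.8 and 68.7 FPKM in controls, and Pdzk1 at 12.0 and 4.91 FPKM, against 236 and 201 FPKM. For Anpep the nearest were Tfcp2l1 (0.05), Imp3 (0.05) and Ctsb (0.08). With 4 libraries such nearness is a description only.

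Other peptidases of the brush border membrane were lower too where they were called. Of 7 listed genes 4 were tested, of which 2 fell and 0 rose, at a median log2 fold change of -1.67 against 0.02 for all genes tested. Dpep1, a dipeptidase that also cleaves cysteinyl leukotrienes, fell to 6.87 and 3.09 FPKM in the double knockout, against 208 and 309 FPKM in controls (log2 fold change -5.49; limma, adjusted p = 0.00423). Ggt1, a gamma-glutamyl transferase that opens glutathione outside the cell, fell to 82.6 and 37.9 FPKM in the double knockout, against 391 and 403 FPKM in controls (log2 fold change -2.80; limma, adjusted p = 0.0177). Dropping either control replicate ended the call of Ggt1 (limma, adjusted p of 0.0908 and 0.106). The others were not called or not tested. Cpm had a log2 fold change of 0.60 and Ggt6 of -0.54 (limma, adjusted p = 0.0872 and 0.121). Folh1 and Naalad2 did not exceed 0.0718 FPKM in any library, and Tmprss15, enteropeptidase, was at 2.34 and 0.400 FPKM in the double knockout, against 0.777 and 0.146 FPKM in controls.

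Inside the cell, 3 of 14 cytosolic peptidase genes fell and 0 rose, at a median of -0.36. Cndp2, which splits dipeptides, fell to 93.9 and 53.8 FPKM in the double knockout, against 715 and 626 FPKM in controls (log2 fold change -3.22; limma, adjusted p = 0.00824). Pepd, or prolidase, which splits dipeptides that end in proline, fell to 79.7 and 79.0 FPKM in the double knockout, against 431 and 338 FPKM in controls (log2 fold change -2.25; limma, adjusted p = 0.00718). Lta4h, a leukotriene-forming aminopeptidase, changed least of the 3, with a log2 fold change of -0.88 (limma, adjusted p = 0.0485; 0.0803 to 0.172 when 1 library was left out). When control replicate 1 or 2 was dropped, Pepd alone of the 14 was called.

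Among carriers of peptides and amino acids 5 of 13 tested genes fell and 0 rose, at a median of -1.02. Slc6a20a, which carries proline and related imino acids, fell to 4.68 and 3.62 FPKM in the double knockout, against 74.8 and 63.0 FPKM in controls (log2 fold change -3.77; limma, adjusted p = 0.00187). Slc1a1, a carrier of acidic amino acids, fell to 1.61 and 1.43 FPKM in the double knockout, against 17.0 and 31.6 FPKM in controls (log2 fold change -3.26; limma, adjusted p = 0.00834). Slc36a1, a proton-coupled carrier of small amino acids, fell to 6.87 and 3.90 FPKM in the double knockout, against 26.7 and 24.6 FPKM in controls (log2 fold change -2.10; limma, adjusted p = 0.0150). Slc15a1, the dipeptide and tripeptide carrier, stood at 126 and 131 FPKM in the double knockout, against 213 and 320 FPKM in controls (limma, adjusted p = 0.0683), and was chosen after its values were seen. The number of carriers called lower was 2 when control replicate 1 or 2 was dropped and 3 when double knockout replicate 2 was.

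Relatives of the 9 genes by family, which work in other compartments or tissues, were mostly not called: of 13 tested, 2 fell and 0 rose, at a median of 0.10. Bmp1, an astacin like the meprins, fell to 0.815 and 0.886 FPKM in the double knockout, against 10.8 and 4.89 FPKM in controls (limma, adjusted p = 0.0293), and Ece1, a relative of neprilysin, to 8.09 and 8.06 FPKM, against 13.9 and 13.6 FPKM (limma, adjusted p = 0.0498). In the 4 fits without 1 library Ece1 was called in 0 (limma, adjusted p of 0.129 to 0.202) and Bmp1 in 1 (0.0361 to 0.106). Brush border enzymes for other substrates, 7 disaccharidase, phosphatase and sphingomyelinase genes, included 5 that fell and 0 that rose, at a median of -3.29. Lct, the gene of lactase, fell to 2.70 and 0.742 FPKM in the double knockout, against 300.002 and 283 FPKM in controls (limma, adjusted p = 0.00233). Enpp7, an intestinal sphingomyelinase, fell to 1.36 and 0.508 FPKM, against 309 and 253 FPKM in controls (limma, adjusted p = 0.00133). Sis, the gene of sucrase-isomaltase, fell to 57.1 and 25.7 FPKM, against 462 and 1554 FPKM in controls (limma, adjusted p = 0.0236, and 0.0431 to 0.0863 in the fits without 1 library). The number called lower was 3 (Lct, Treh and Enpp7) when either control or double knockout replicate 2 was dropped. In that last fit the phosphatase gene Akp3 was called higher (limma, adjusted p = 0.0450, and up to 0.785 in the others). The difference between these lists was not tested.

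**Figure D4:**
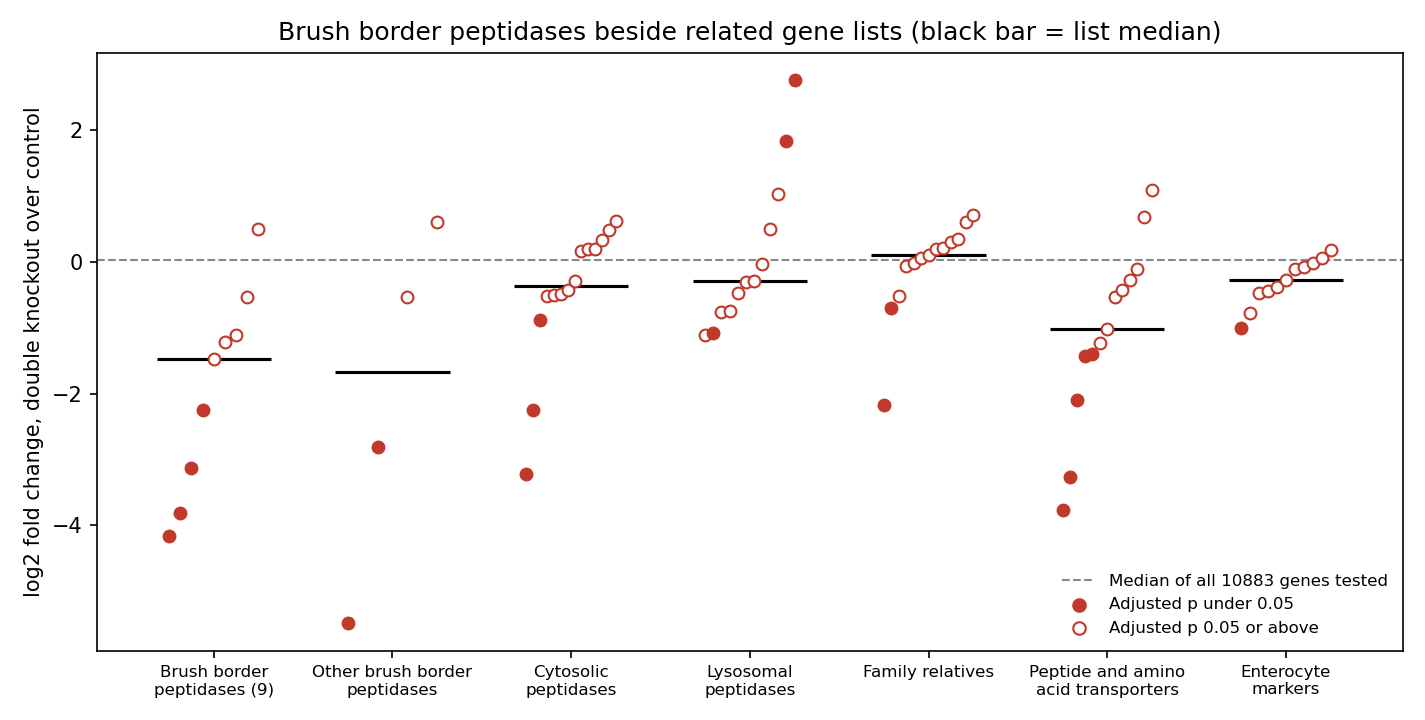
Log2 fold changes, double knockout over control, of the tested genes of the peptidase list and 6 related lists, with a black bar at each list's median and filled points at an adjusted p under 0.05. The medians are -1.48 for the 9 brush border peptidases, -1.67 for other brush border peptidases, -0.36 for cytosolic peptidases, -0.29 for lysosomal peptidases, 0.10 for family relatives, -1.02 for the carriers and -0.28 for enterocyte markers; the dashed line is the median of all genes tested.

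Several of the 9 enzymes are also made by other cells: endothelium (Ace), lymphocytes (Dpp4), myeloid cells (Anpep) and stroma (Mme, Enpep). The 6 endothelial markers summed to 0.883 and 0.788 FPKM in the double knockout and 0.874 and 0.670 FPKM in controls, and Flt1 was listed at 0 in every library. The 9 fibroblast, pericyte and muscle markers found summed to 1.07 and 5.56 FPKM in the double knockout and 3.18 and 3.92 FPKM in controls. Of 8 tested T cell markers 0 were called, and the 5 B cell markers found summed to 3.47 and 4.38 FPKM in the double knockout and 2.41 and 1.29 FPKM in controls. Of 3 tested myeloid markers, Itgam fell and Cd14 rose (limma, adjusted p = 0.0410 and 0.0455), though neither was called in any fit without 1 library (0.0893 to 0.1499 and 0.0972 to 0.164), and the 6 myeloid markers summed to 13.7 and 12.8 FPKM in the double knockout and 15.2 and 44.4 FPKM in controls. Of 8 crypt and cycling cell markers 0 were called (sums of 411 and 441 FPKM in the double knockout, 429 and 185 FPKM in controls), and of 7 goblet cell markers 0 (15994 and 12281 FPKM in the double knockout, 18694 and 15733 FPKM in controls). Of 6 Paneth cell markers 1 fell, Mptx2 (sums of 28869.6 and 62592 FPKM in the double knockout, 45141 and 40469 FPKM in controls). Most of these sums was Defa24, at 25477 and 57893 FPKM in the double knockout and 32235 and 30780 FPKM in controls. Lyz1 and Ang4 were lower and Mmp7 higher in both double knockout libraries than in both controls, without a call. Of 5 enteroendocrine markers 4 fell (85.1 and 64.5 FPKM in the double knockout, 279 and 237 FPKM in controls). That count was 1 (Sct) when either control or double knockout replicate 2 was dropped, and 3 when double knockout replicate 1 was. Of 4 tested tuft cell markers 1 fell, Ltc4s (sums of 42.6 and 34.7 FPKM in the double knockout, 30.6 and 69.3 FPKM in controls), which was called in 1 of the 4 fits without 1 library. All 6 tested stomach epithelium markers rose; the 10 listed summed to 3551 and 1684 FPKM in the double knockout and 3.09 and 1.97 FPKM in controls. The part of these shifts in the peptidase values was not tested.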

How the data were processed

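RNA was measured in 4 libraries of jejunal epithelium released with 5 mM EDTA for 45 minutes; the labels' protocols give TruSeq kits and single-end sequencing (75 bases) and do not say whether strand was kept. Per the submitters' processing notes, TopHat2 2.0.9, Cufflinks 2.1.1, Cuffnorm, Cuffdiff and build mm9 were used. The authors deposited a table of 23735 rows, 1 column a library, taken as FPKM normalized between libraries, since its header names no unit, and per-library FPKM files, used as an alternative. The interval bounds in those files were not used, since the FPKM of several peptidases lay outside its own bounds. The p-values and q-values (adjusted p-values) and group FPKM of the authors' own comparison were copied from the table the authors deposited. Its headers do not name the test, and the submitters' notes name Cuffdiff.

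Rows of a symbol were summed (147 symbols) and 1034 short RNA symbols left out. The 10883 genes averaging 1 FPKM or more were tested with limma 3.58.1 (R 4.3.3) on log2(FPKM + 1), with an intensity trend, two-sided, adjusted over all genes; fold changes on this scale understate those of low genes. Calls need an adjusted p under 0.05. Fold ratios in the text are of mean FPKM. The procedure was tested on simulated data. The members and the 20 other lists were chosen with earlier results of these data known, so no list was tested as a set. Of 199 listed genes 194 had a row of their own; 1 further gene of the other brush border peptidases is not reported here and was left out of that list's counts. Genes named by rule were the 9 peptidases, the other brush border peptidases, the targeted genes and paralogs, up to 3 called genes per direction of each list that holds no markers, and the 3 nearest profiles of 2 peptidases. Single cell type markers, Treh, Akp3, Slc15a1, Ada, Gm11651 and the angiotensin receptor genes were named outside this rule. The 13 alternatives changed the pseudocount, filter, scaling, FPKM source, variance model and replicate block, and left out each library.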

Additional observations from a re-analysis of the deposited data

How the results depend on the processing

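No alternative changed the sign of a peptidase's log2 fold change. Of the 117 values of single peptidases under the 13 alternatives, 105 kept their side of the threshold, 11 lost a call and 1 gained it. With no filter but a mean above 0 (16712 genes tested) 2 peptidases were called lower, Enpep and Naaladl1, and 268 genes in all were called higher. Leaving out 1 library gave 171 to 693 genes called (97 to 384 lower, 67 to 309 higher), 2 to 5 peptidases lower and 0 higher, and a median peptidase log2 fold change of -1.93 to -1.15. Other brush border peptidases called lower then numbered 1 to 2, cytosolic peptidases 1 to 2 and carriers 2 to 5. The fits without 1 library rest on 3 libraries, and the lone library of a group is assumed to vary like the others; the cause of lost calls beyond that was not tested. The ratio of summed peptidase FPKM, double knockout over control, was 0.754 and stayed at 0.652 to 0.856 over its alternatives. Libraries with the same replicate number did not deviate together across genes (r = -0.00481 across 10883 genes, which are not independent). With 2 libraries a group this is 1 correlation, so it cannot tell whether they shared a batch. The replicate block gave 476 genes lower and 310 higher, 4 peptidases lower and 0 higher. For named genes outside the peptidases 278 values kept their side and 59 lost a call. The log2 differences of Anpep (0.50) and Mep1b (-0.53) did not pass the test. Absolute depth is unknown, and whether depth or the 2 libraries a group limited these calls was not tested.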

Other observations

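Genes of peptides that the 9 enzymes are known to cut were listed with the angiotensin system and with Ada, an enzyme gene that belongs to neither. Of 8 tested, 3 fell and 0 rose in the libraries labelled double knockout. Gip, an incretin that Dpp4 inactivates, fell to 67.7 and 50.9 FPKM in the double knockout, against 370 and 304 FPKM in controls (limma, adjusted p = 0.00758). Nts, the gene of neurotensin, fell to 3.17 and 4.25 FPKM in the double knockout, against 95.8 and 114 FPKM in controls (limma, adjusted p = 0.00137), and Cck, the gene of cholecystokinin, to 12.0 and 9.37 FPKM, against 46.6 and 36.4 FPKM (limma, adjusted p = 0.0117). These 3 are hormones of enteroendocrine cells, whose 5 markers summed to 85.1 and 64.5 FPKM in the double knockout, against 279 and 237 FPKM in controls, with 4 called lower (1 to 3 in the fits without 1 library) and a median log2 fold change of -1.58. The part of that shift in the values of Gip, Nts and Cck was not tested. Without control replicate 1 or 2 Gip and Cck lost their calls (limma, adjusted p of up to 0.0543 and 0.0620). The angiotensin receptor genes Agtr1a, Agtr1b and Agtr2 were listed at 0 in every library.

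Of 12 lysosomal peptidase genes 1 fell and 2 rose. Lgmn, the asparagine-directed protease legumain, rose to 121 and 45.0 FPKM in the double knockout, against 13.3 and 7.55 FPKM in controls (limma, adjusted p = 0.0414), and Ctsc, a lysosomal dipeptidyl peptidase, to 84.1 and 86.4 FPKM, against 15.8 and 34.1 FPKM (limma, adjusted p = 0.0466). Scpep1, a serine carboxypeptidase, fell to 8.06 and 7.80 FPKM in the double knockout, against 16.8 and 19.1 FPKM in controls (limma, adjusted p = 0.0199). Lgmn and Ctsc each kept the call in 1 of 4 fits that left out 1 library, and Scpep1 in 0 (limma, adjusted p of up to 0.174, 0.153 and 0.101).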
